A study of Homo sapiens with 6 samples.

Results

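The 36 genes described here encode components of the PI3K, AKT, mTOR and FOXO pathway and were taken by symbol from the deposited table of 58735 genes. All 36 were present, and 35 of them were among the 14520 genes that passed the filter on low counts and were tested. RNA was sequenced from MDA-MB-231, a cell line of triple-negative human breast cancer, in 6 libraries. The cells of 3 overexpression (OE) libraries had received a vector carrying DNAJC12, a J-domain co-chaperone, and those of 3 vector (VEC) libraries the empty vector. Whether the 3 libraries of a group are separate cultures is not given in the labels. The p-values therefore rest only on the spread between these libraries, in part pooled over genes, and that spread may be technical.

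Insulin and IGF receptors recruit IRS adaptors, which bring PI3K to the membrane, where it makes the lipid that activates AKT. AKT in turn restrains the TSC complex, so that RHEB can activate mTORC1, and keeps FOXO transcription factors out of the nucleus. Signalling through these proteins runs mainly by phosphorylation, which transcript counts do not measure. In breast cancer the pathway is known for mutations of PIK3CA and for loss of the lipid phosphatase INPP4B.

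DNAJC12 itself had 522, 523 and 492 counts in OE libraries 1 to 3 and 1, 0 and 0 counts in VEC libraries 1 to 3. The OE libraries held 18340306 to 18887497 counts and the VEC libraries 17967283 to 18343249. The mesenchymal markers VIM and CD44 had at least 568 CPM (counts scaled to library size, with TMM factors for library composition) in each library. AXL, CAV1 and EGFR, also expected in this line, had at least 69.6 CPM in each library. In these 3 genes every OE library lay above every VEC library. Their log2 ratios of OE over VEC were 0.44 ± 0.21, 0.91 ± 0.26 and 0.89 ± 0.26 SE, none past the threshold of the test used below. The hormone receptors ESR1 and PGR did not exceed 0.160 CPM. The other genes expected to be low or absent were detected, EPCAM at up to 12.4 CPM, CDH1 at up to 5.11 CPM and ERBB3 at up to 13.2 CPM. Of 11 markers of leukocytes, endothelium, fibroblasts and adipocytes, CD3E and ADIPOQ had 0 counts. The summed level of the 11 was 11.8 to 18.1 CPM in OE libraries and 24.6 to 29.6 CPM in VEC libraries. The leukocyte marker CD14 had 4.86, 12.6 and 9.35 CPM in OE libraries and 6.22, 8.23 and 7.03 CPM in VEC libraries. PECAM1, an endothelial adhesion gene, fell with DNAJC12 (log2 ratio of OE over VEC -1.99 ± 0.29 SE, adjusted p = 0.0125), with 5.51, 4.43 and 3.81 CPM in OE libraries and 22.7, 15.1 and 17.00 CPM in VEC libraries. The part of these markers in the results below was not tested.

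OE replicate 2 stood apart from the other OE libraries in the GC content of its transcripts. Weighted by counts, the mean GC content was 51.9, 54.3 and 52.8% in OE libraries 1 to 3 and 52.4, 53.7 and 53.3% in VEC libraries 1 to 3. Across the 35 tested members, Spearman's rho between GC content and the gap of OE replicate 2 to OE replicates 1 and 3 was 0.875, beside 0.795 over all tested genes. For VEC replicate 2 against its own group it was 0.745, beside 0.654. The points share libraries, so these values are descriptions. The 6 members in the lowest quintile of GC content (PIK3CA, PIK3CB, PIK3R1, INPP4B, RHEB and RICTOR) had a median log2 gap of -1.12 in OE replicate 2, and the 6 in the highest (PIK3CD, AKT1, TSC2, MLST8, AKT1S1 and RPS6KB2) one of 0.82. Beside the values from all libraries, results are therefore given with a correction for GC content and from a fit that leaves out both libraries numbered 2.

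**Figure D1:**
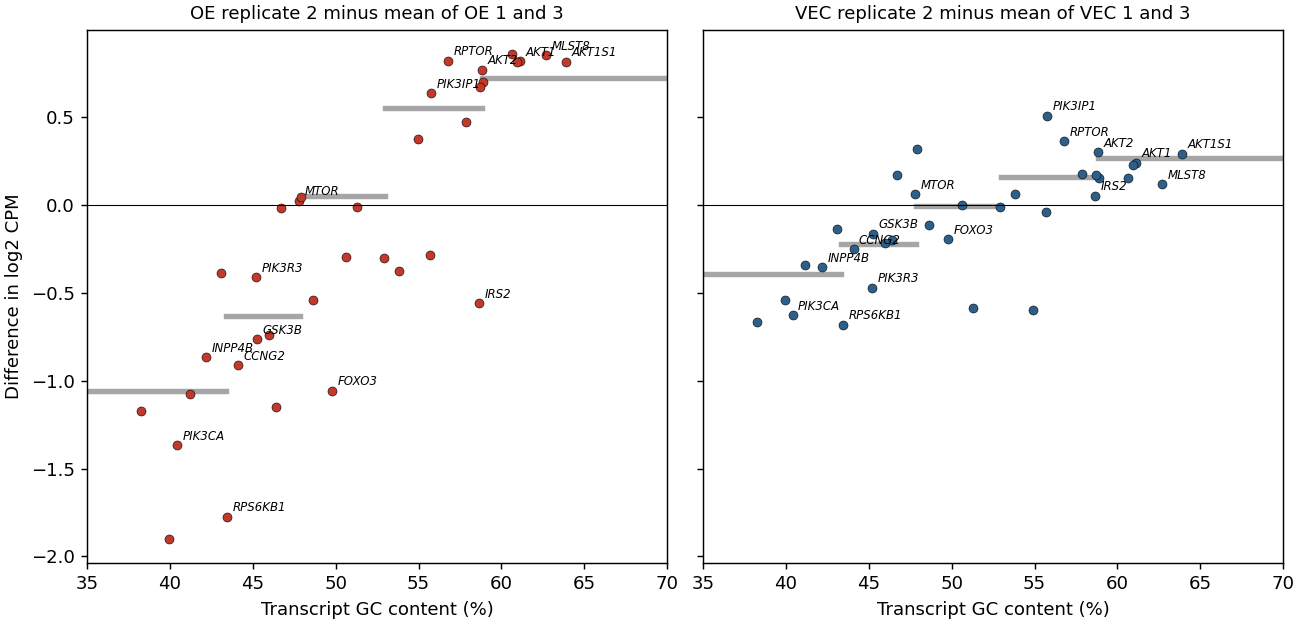
Difference in log2 CPM between replicate 2 and the mean of replicates 1 and 3 (y) against transcript GC content in percent (x) for the 35 tested members, in OE libraries (left) and VEC libraries (right). Grey bars are medians over all tested genes in each quintile of GC content. Members of the lowest quintile have a median of -1.12 in OE replicate 2 and those of the highest 0.82.

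No member passed the test at an adjusted p under 0.05 over all genes (edgeR quasi-likelihood test, Benjamini-Hochberg adjustment), where 1.25% of all tested genes did. An unadjusted p under 0.05 was reached by 5 members, 4 of them higher and 1 lower with DNAJC12. That is 14.3% of the 35, beside 14.1% of all tested genes. In 4 members, or 11.4%, every OE library lay on one side of every VEC library, beside 20.1% of all tested genes. The median log2 fold change (the log2 ratio of OE over VEC) was 0.095 over the members and 0.049 over all tested genes, with 21 members above 0 and 14 below. These counts lie near or under the background of the table. With the DESeq2 Wald test 2 members rose, IRS2 (adjusted p = 0.0204) and INPP4B (adjusted p = 0.0118), where 3.89% of all tested genes passed.

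More members, and more of all genes, passed after GC correction or with libraries numbered 2 left out. After GC correction 7 members rose and 1 fell, which is 22.9% of the 35, beside 17.8% of all genes. Without both libraries numbered 2 there were 6 that rose and 2 that fell, again 22.9%, beside 18.7% of all genes. Without OE replicate 2 alone 7 rose and 3 fell, 28.6% beside 22.5%. In the fit without both libraries numbered 2, the SE of AKT1, AKT2 and the FOXO target BNIP3 were 0.182, 0.181 and 0.182. With all libraries they were 0.261, 0.258 and 0.188. The small p-values of that reduced fit thus rest largely on a spread shared across genes, not on each gene's own libraries. The libraries left still differed in mean GC content, with 51.9 and 52.8% in OE replicates 1 and 3 and 52.4 and 53.3% in VEC replicates 1 and 3. Of the members called with libraries left out but not after GC correction, RPS6KB1 (43.4% GC), CCNG2 (44.1%) and PHLPP2 (46.4%) rose. RPTOR (56.8%), MLST8 (62.7%) and PIK3CD (58.9%) fell. The part of GC content in these calls was not tested. After GC correction the groups did not overlap in 13 members, 37.1% beside 36.5% of all genes. IRS2, INPP4B, GSK3B and FOXO3 were the 4 members that rose in all of those fits. Without any 1 of the other 5 libraries no member passed.

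**Figure D2:**
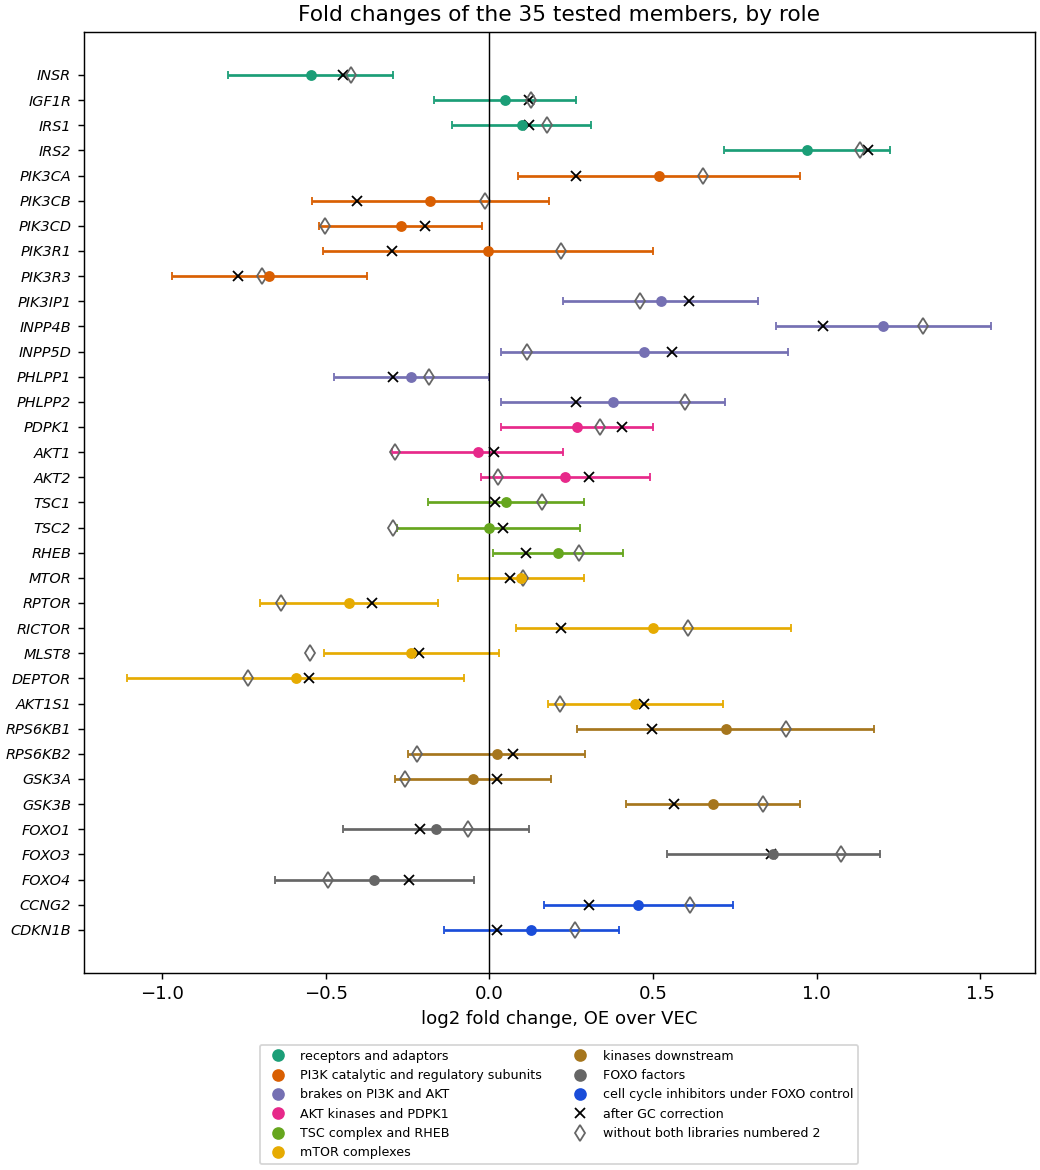
Log2 fold changes, OE over VEC (x), of the 35 tested members (y), coloured by role. Filled points with bars are the edgeR estimates ± SE from all 6 libraries, crosses the values after GC correction and open diamonds those without both libraries numbered 2. INPP4B, IRS2 and FOXO3 have the highest estimates from all libraries, and PIK3R3 the lowest.

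Among receptors and adaptors, IRS2 had higher values in every library with DNAJC12. IRS2 links insulin and IGF receptors to PI3K; its gene (ENSG00000185950) lies on the minus strand of chromosome 13 from 109752698 to 109786568 (GRCh38). It had 50.5, 34.8 and 52.03 CPM in OE libraries and 18.6, 23.6 and 27.8 CPM in VEC libraries. OE replicate 2 was the lowest of its group and still above all VEC libraries. The log2 fold change was 0.97 ± 0.25 SE (unadjusted p = 0.00354, adjusted p = 0.110). IRS2 rose after GC correction (log2 ratio 1.16 ± 0.28 SE, adjusted p = 0.0235) and without both libraries numbered 2 (log2 ratio 1.13 ± 0.22 SE, adjusted p = 1.741e-05). The GC-corrected log2 CPM of IRS2 were 6.02, 4.78 and 5.86 in OE libraries and 4.31, 4.38 and 4.74 in VEC libraries, so that OE replicate 2 stayed apart from OE replicates 1 and 3 and just above the VEC range. For the other adaptor, IRS1, the log2 ratio was 0.10 ± 0.21 SE, and for the receptor IGF1R the log2 ratio was 0.048 ± 0.22 SE. INSR, the insulin receptor, is described because its groups did not overlap, a choice made after its values were seen. It had 11.5, 9.42 and 13.1 CPM in OE libraries and 14.3, 16.97 and 18.4 CPM in VEC libraries. Every OE value lay below every VEC value, but INSR did not pass with all libraries (log2 ratio -0.55 ± 0.25 SE, adjusted p = 0.371) or after GC correction (adjusted p = 0.149).

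The PI3K subunits gave differences in both directions, none past the threshold with all libraries. PIK3CA, the p110 alpha catalytic subunit and the one most often mutated in breast cancer, had 8.67, 2.72 and 5.96 CPM in OE libraries and 3.65, 2.89 and 5.60 CPM in VEC libraries. OE replicate 1 was the highest of all 6 libraries and OE replicate 2 the lowest. Its log2 fold change was 0.52 ± 0.43 SE (adjusted p = 0.646), and 0.26 ± 0.24 SE after GC correction. PIK3R3, a regulatory subunit, had 3.51, 2.28 and 2.66 CPM in OE libraries and 4.99, 3.56 and 4.96 CPM in VEC libraries. All OE values lay below all VEC values, the closest being 3.51 CPM in OE replicate 1 and 3.56 CPM in VEC replicate 2. With all libraries PIK3R3 had a log2 ratio of -0.67 ± 0.30 SE (unadjusted p = 0.0491, adjusted p = 0.350), and it fell after GC correction (log2 ratio -0.77 ± 0.20 SE, adjusted p = 0.0304). Without both libraries numbered 2, PIK3R3 did not pass, with a log2 ratio of -0.70 (adjusted p = 0.141). With all libraries the catalytic subunit PIK3CB had a log2 ratio of -0.18 ± 0.36 SE, and -0.41 ± 0.14 SE after GC correction (adjusted p = 0.0787). The regulatory subunit PIK3R1 had -0.0047 ± 0.50 SE as its log2 ratio with all libraries and -0.30 ± 0.32 SE after GC correction. PIK3CD, the catalytic subunit p110 delta, had a log2 ratio of -0.27 ± 0.25 SE with all libraries and fell without OE replicate 2 (log2 ratio -0.54 ± 0.16 SE, adjusted p = 0.0317). It did not pass after GC correction (log2 ratio -0.20 ± 0.094 SE, adjusted p = 0.182) or without both libraries numbered 2 (adjusted p = 0.0705). PIK3R2, the remaining regulatory subunit, had 9 counts in all 6 libraries together and was not tested. Its position overlaps AC007192.1 on the same strand, which had 0 counts. How reads over both were counted is not given in the sources used here, so the low count does not show that PIK3R2 was silent.

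INPP4B had the largest fold change of the brakes on PI3K and AKT, and of all 35 tested members. INPP4B is a phosphatase that acts on PI(3,4)P2, a lipid of the PI3K pathway, and is known as a breast tumour suppressor. Its gene (ENSG00000109452) spans 142023160 to 142847432 of chromosome 4, minus strand (GRCh38). It had 25.2, 11.4 and 17.3 CPM in OE libraries and 9.34, 6.56 and 7.57 CPM in VEC libraries. Every OE library was above every VEC library, and replicate 2 was the lowest of each group. The log2 fold change was 1.20 ± 0.33 SE (unadjusted p = 0.00480, adjusted p = 0.128). After GC correction the log2 CPM were 4.08, 4.13 and 3.92 in OE libraries and 3.08, 3.05 and 2.97 in VEC libraries, so that OE replicate 2 no longer stood below its group. INPP4B rose on that scale (log2 ratio 1.02 ± 0.14 SE, adjusted p = 0.00143) and without both libraries numbered 2 (log2 ratio 1.32 ± 0.27 SE, adjusted p = 4.654e-05).

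PIK3IP1, a membrane protein that inhibits p110, had 10.8, 16.2 and 10.03 CPM in OE libraries and 7.24, 10.7 and 7.78 CPM in VEC libraries. Replicate 2 was the highest of each group and the groups overlapped. With all libraries it had a log2 ratio of 0.52 ± 0.30 SE (adjusted p = 0.479). PIK3IP1 rose after GC correction (log2 ratio 0.61 ± 0.17 SE, adjusted p = 0.0366), while without both libraries numbered 2 its adjusted p was 0.276. PHLPP1, a phosphatase of AKT, had a log2 ratio of -0.24 ± 0.24 SE. Its paralogue PHLPP2 had a log2 ratio of 0.38 ± 0.34 SE and rose without OE replicate 2 (log2 ratio 0.67 ± 0.23 SE, adjusted p = 0.0495). PHLPP2 did not pass after GC correction (log2 ratio 0.27 ± 0.19 SE, adjusted p = 0.378) or without both libraries numbered 2 (adjusted p = 0.132). The lipid phosphatase INPP5D, best known from blood cells, did not exceed 0.822 CPM.

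AKT1 and AKT2 did not pass with all libraries. AKT1 had 286, 548 and 337 CPM in OE libraries and 368, 446 and 387 CPM in VEC libraries. OE replicate 2 was the highest of all 6 libraries and OE replicate 1 the lowest. Its log2 fold change was -0.036 ± 0.26 SE with all libraries, 0.015 ± 0.091 SE with the GC correction and -0.29 without both libraries numbered 2, none past the threshold. AKT2, known for its part in insulin-driven glucose uptake, had 243, 445 and 279 CPM in OE libraries and 239, 314 and 271 CPM in VEC libraries, and the ranges overlapped. It had a log2 ratio of 0.23 ± 0.26 SE with all libraries (adjusted p = 0.744), rose after GC correction (log2 ratio 0.30 ± 0.090 SE, adjusted p = 0.0448) and had a log2 ratio of 0.025 without both libraries numbered 2. PDPK1, the kinase that phosphorylates the activation loop of AKT, had a log2 ratio of 0.27 ± 0.23 SE.

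**Figure D3:**
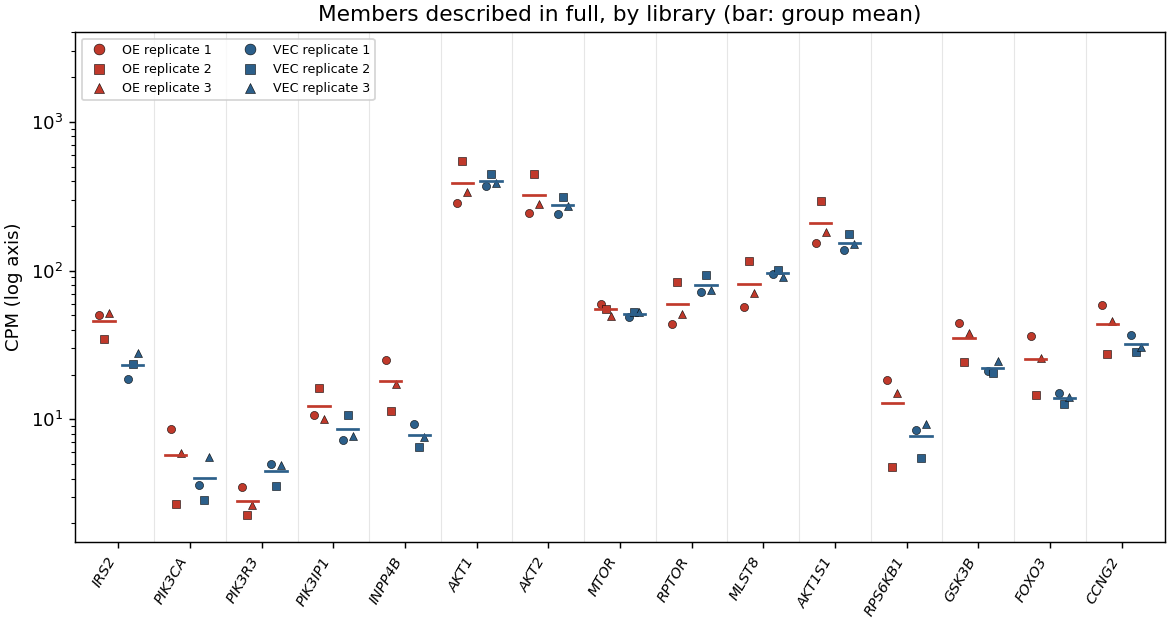
CPM on a log axis (y) of the 15 members given library by library (x), OE in red left of VEC in blue, with marker shapes for replicates 1 to 3 and a bar for each group mean. The OE values of IRS2 and INPP4B lie above those of VEC libraries, while AKT1, AKT2 and MTOR overlap.

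MTOR and the TSC complex had small differences, none past the threshold. MTOR, the kinase of both mTOR complexes, had 59.9, 55.5 and 49.7 CPM in OE libraries and 48.9, 53.01 and 52.5 CPM in VEC libraries. The groups overlapped, and the log2 ratio was 0.10 ± 0.19 SE (adjusted p = 0.875). TSC1 and TSC2, which together hold RHEB inactive, had a log2 ratio of 0.050 ± 0.24 SE and -0.0027 ± 0.28 SE, and RHEB had a log2 ratio of 0.21 ± 0.20 SE. RPTOR, which defines mTORC1, had 43.8, 83.6 and 50.8 CPM in OE libraries and 71.95, 93.9 and 74.02 CPM in VEC libraries. OE replicate 2 reached into the VEC range while OE replicates 1 and 3 lay below it. RPTOR had a log2 ratio of -0.43 ± 0.27 SE with all libraries (adjusted p = 0.528) and -0.36 ± 0.12 SE after GC correction (adjusted p = 0.0619), and fell without both libraries numbered 2 (log2 ratio -0.64 ± 0.20 SE, adjusted p = 0.0118). MLST8, a subunit of both complexes, had 57.1, 115 and 71.1 CPM in OE libraries and 95.5, 101 and 90.5 CPM in VEC libraries, OE replicate 2 again being the highest of its group. It had a log2 ratio of -0.24 ± 0.27 SE with all libraries and fell without both libraries numbered 2 (log2 ratio -0.55 ± 0.19 SE, adjusted p = 0.0281). After GC correction its groups overlapped and it did not pass (log2 ratio -0.21 ± 0.11 SE, adjusted p = 0.229). RICTOR, which defines mTORC2, had a log2 ratio of 0.50 ± 0.42 SE, and 0.22 ± 0.19 SE after GC correction. The mTOR inhibitor DEPTOR did not exceed 0.751 CPM.

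AKT1S1, which encodes the mTORC1 inhibitor PRAS40, had 152, 294 and 183 CPM in OE libraries and 137, 175 and 150.0 CPM in VEC libraries. OE replicate 1 lay within the VEC range. With all libraries the log2 ratio was 0.45 ± 0.27 SE (adjusted p = 0.503). After GC correction the log2 CPM were 7.67, 7.76 and 7.64 in OE libraries and 7.29, 7.23 and 7.14 in VEC libraries, with no overlap, and AKT1S1 rose (log2 ratio 0.47 ± 0.087 SE, adjusted p = 0.00651). Without both libraries numbered 2 it had a log2 ratio of 0.22 (adjusted p = 0.447).

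Of the kinases downstream, GSK3B reached an unadjusted p under 0.05. GSK3B, which AKT inhibits, had 44.3, 24.2 and 37.98 CPM in OE libraries and 21.1, 20.4 and 24.7 CPM in VEC libraries; its gene (ENSG00000082701) is on chromosome 3, minus strand, 119821323 to 120094417 (GRCh38). OE replicate 2 lay just below VEC replicate 3, and OE replicates 1 and 3 above all VEC libraries. With all libraries GSK3B had a log2 ratio of 0.68 ± 0.27 SE (unadjusted p = 0.0286, adjusted p = 0.291). It rose after GC correction (log2 ratio 0.56 ± 0.13 SE, adjusted p = 0.0157) and without both libraries numbered 2 (log2 ratio 0.83 ± 0.22 SE, adjusted p = 0.00301). Its paralogue GSK3A had a log2 ratio of -0.050 ± 0.24 SE, and the difference between the paralogues was not tested. RPS6KB1, the S6 kinase activated by mTORC1, had 18.5, 4.805 and 15.05 CPM in OE libraries and 8.42, 5.51 and 9.38 CPM in VEC libraries. OE replicate 2 was the lowest of all 6 libraries, while OE replicates 1 and 3 were the highest. RPS6KB1 had a log2 ratio of 0.72 ± 0.45 SE with all libraries (adjusted p = 0.526) and 0.50 ± 0.25 SE after GC correction (adjusted p = 0.200), and rose without both libraries numbered 2 (log2 ratio 0.91 ± 0.27 SE, adjusted p = 0.00928). For RPS6KB2 the log2 ratio was 0.022 ± 0.27 SE.

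FOXO3 was the FOXO factor with an unadjusted p under 0.05. FOXO3, a transcription factor that AKT keeps out of the nucleus, is encoded on chromosome 6, plus strand, from 108559835 to 108684774 (ENSG00000118689, GRCh38). It had 36.2, 14.6 and 25.7 CPM in OE libraries and 15.1, 12.7 and 14.1 CPM in VEC libraries. OE replicates 1 and 3 were above every VEC library and OE replicate 2 was within their range. With all libraries the log2 ratio was 0.87 ± 0.33 SE (unadjusted p = 0.0249, adjusted p = 0.271). FOXO3 rose after GC correction (log2 ratio 0.86 ± 0.25 SE, adjusted p = 0.0448) and without both libraries numbered 2 (log2 ratio 1.07 ± 0.24 SE, adjusted p = 0.000313). The GC-corrected log2 CPM of FOXO3 were 5.13, 3.95 and 4.68 in OE libraries and 3.90, 3.71 and 3.82 in VEC libraries, so that OE replicate 2 stayed apart from OE replicates 1 and 3 and just above the VEC range. FOXO1 had a log2 ratio of -0.16 ± 0.29 SE and FOXO4 a log2 ratio of -0.35 ± 0.30 SE.

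CCNG2 and CDKN1B are cell cycle inhibitors that FOXO factors induce. CCNG2, an atypical cyclin, had 58.5, 27.4 and 45.6 CPM in OE libraries and 36.97, 28.3 and 30.7 CPM in VEC libraries. OE replicate 2 was the lowest of all 6 libraries, and OE replicates 1 and 3 the highest. CCNG2 had a log2 ratio of 0.46 ± 0.29 SE with all libraries (adjusted p = 0.528) and 0.30 ± 0.10 SE after GC correction (adjusted p = 0.0675), and rose without both libraries numbered 2 (log2 ratio 0.61 ± 0.21 SE, adjusted p = 0.0253). CDKN1B, which encodes the CDK inhibitor p27, had a log2 ratio of 0.13 ± 0.27 SE.

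Promoter windows of the members were searched for letters that FOXO factors are known to bind, since several pathway genes are FOXO targets. RefSeq windows on GRCh38.p14, from 250 bases before to 50 bases after a gene start, were matched by symbol for 33 of the 36 members. The motif GTAAACA, on either strand, was found for 3 of the 33, and for 4.19% of the 27058 genes with a window. The longer motif TTGTTTAC, also searched on both strands, contains the reverse complement of GTAAACA, so each of its matches is also a match to GTAAACA. The longer motif was found for PIK3CA alone among the members and for 1.19% of genes. The windows of those 3 members are shown because they hold the motif, and that of TXNIP, a known FOXO target, for comparison. Capitals mark the motifs, and each sequence runs 5′ to 3′ on the strand of its gene: PIK3CA at chr3:179148107-179148406 (plus), PIK3IP1 at chr22:31292439-31292738 (minus), FOXO4 at chrX:71095601-71095900 (plus) and TXNIP at chr1:145996530-145996829 (minus).
PIK3CA: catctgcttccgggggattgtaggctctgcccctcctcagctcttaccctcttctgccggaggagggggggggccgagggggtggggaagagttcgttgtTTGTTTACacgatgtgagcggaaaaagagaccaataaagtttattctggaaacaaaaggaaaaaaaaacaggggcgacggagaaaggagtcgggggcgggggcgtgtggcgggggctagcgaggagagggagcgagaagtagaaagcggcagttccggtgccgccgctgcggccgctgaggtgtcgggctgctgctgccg
PIK3IP1: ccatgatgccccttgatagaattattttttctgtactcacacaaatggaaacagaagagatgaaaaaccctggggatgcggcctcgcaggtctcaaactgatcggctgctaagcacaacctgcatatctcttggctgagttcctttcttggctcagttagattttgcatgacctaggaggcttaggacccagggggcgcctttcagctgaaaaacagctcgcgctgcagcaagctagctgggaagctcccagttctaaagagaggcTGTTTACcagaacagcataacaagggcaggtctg
FOXO4: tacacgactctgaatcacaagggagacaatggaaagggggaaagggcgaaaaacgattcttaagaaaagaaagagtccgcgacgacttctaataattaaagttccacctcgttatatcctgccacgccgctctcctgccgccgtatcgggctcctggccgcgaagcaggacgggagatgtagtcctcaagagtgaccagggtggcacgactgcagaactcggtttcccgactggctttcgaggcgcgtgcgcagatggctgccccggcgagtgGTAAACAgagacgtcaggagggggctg
TXNIP: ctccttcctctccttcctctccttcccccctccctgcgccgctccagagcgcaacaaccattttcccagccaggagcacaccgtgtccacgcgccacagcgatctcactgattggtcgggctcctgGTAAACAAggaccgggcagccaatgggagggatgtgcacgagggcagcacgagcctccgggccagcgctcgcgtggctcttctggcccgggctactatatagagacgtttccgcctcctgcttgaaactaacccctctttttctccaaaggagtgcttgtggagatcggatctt

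The motif stood 150 bases before the start of PIK3CA and 124 before that of TXNIP, and 16 and 23 bases after the starts of PIK3IP1 and FOXO4. PIK3IP1 and TXNIP each had another window, at another gene start, that did not hold the motif. A match to the motif describes letters, not a site. Of the 3 members, PIK3CA and PIK3IP1 had positive fold changes and FOXO4 a negative one, none past the threshold with all libraries. These letters were in no window of IRS2, INPP4B, GSK3B or FOXO3.

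By level per length the pathway was uneven in these cells. In the authors' FPKM (fragments scaled by gene length and library size), averaged over all 6 libraries, RHEB was the most abundant member at 64.5, above 94.8% of tested genes. AKT1 followed at 35.2, AKT1S1 at 31.5 and GSK3A at 28.3 FPKM, and the ranges of these 3 overlapped between libraries. Among catalytic subunits the order was PIK3CD (7.99 FPKM), PIK3CB (1.72 FPKM) and PIK3CA (0.512 FPKM), and it held in all 6 libraries. The ratio of PIK3CD to PIK3CB ran from 2.28 to 10.8. AKT1 exceeded AKT2 by 1.58 to 2.08 times in all 6 libraries. RPTOR exceeded RICTOR by 5.35 to 37.0 times, and RPS6KB2 exceeded RPS6KB1 by 4.59 to 36.8 times. Transcript GC content was 61.1% for AKT1 and 58.8% for AKT2, 56.8% for RPTOR and 38.2% for RICTOR, and 58.9% for PIK3CD and 41.2% for PIK3CB. Over the 35 tested members Spearman's rho between GC content and mean FPKM was 0.558, beside 0.241 over all tested genes, and the part of GC content in these orders was not tested. FOXO3 and FOXO4 were not separated, FOXO3 being higher in 3 of 6 libraries.

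**Figure D4:**
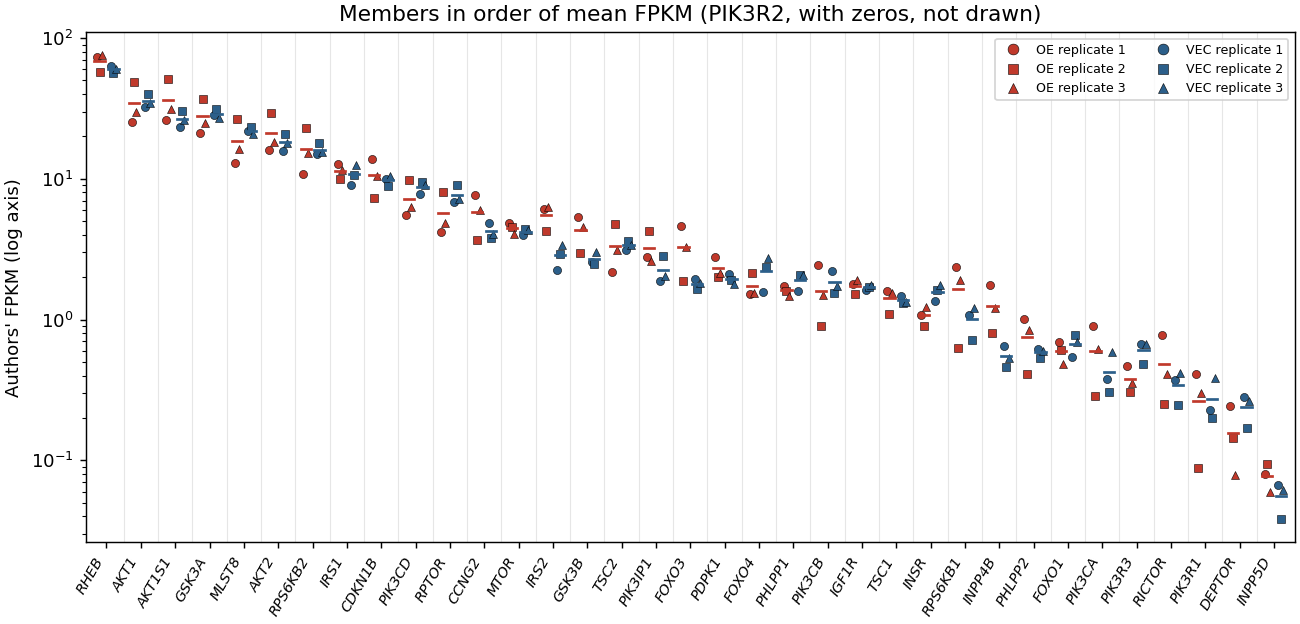
The authors' FPKM on a log axis (y) of the members in order of their mean (x), OE in red left of VEC in blue, with marker shapes for replicates and a bar for each group mean. RHEB has the highest mean, at 64.5 FPKM over all 6 libraries, and replicate 2 moves away from its group upwards in some genes and downwards in others.

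Some counts are uncertain because genes share positions or sequence. At least 1 other annotated gene overlaps 32 of the 36 members, and the strand setting of the counting is not given in the sources used here. RICTOR, with 639 counts in all, overlaps OSMR on the opposite strand, with 12863. PIK3CD (5561 counts) likewise overlaps CLSTN1 (29779 counts), AKT1S1 overlaps TBC1D17, and TSC2 overlaps NTHL1 and PKD1. FOXO3, PDPK1, RHEB and PIK3CA have near-identical copies elsewhere in the genome.

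The rest of the pathway was read from 6 lists of other genes, of which 111 were tested. TRIB3 and SESN2, from the list of stress-induced inhibitors of AKT and mTORC1, were the 2 genes called, both higher with DNAJC12. TRIB3, a pseudokinase known to bind AKT, had 409, 749.6 and 531 CPM in OE libraries and 60.04, 68.5 and 68.2 CPM in VEC libraries, and rose (log2 ratio 3.10 ± 0.26 SE, adjusted p = 0.00117). SESN2, a leucine sensor that restrains mTORC1, had 169.6, 247 and 182 CPM in OE libraries and 37.3, 48.1 and 45.7 CPM in VEC libraries, and rose (log2 ratio 2.19 ± 0.23 SE, adjusted p = 0.00315). No OE value of either gene came near the VEC range. Of the 8 genes of that list, 2 rose, 0 fell and the other 6 did not pass, and the median log2 fold change was 0.83, beside 0.049 over all tested genes. The list was chosen with earlier results in view, so its direction is no independent evidence. DDIT4, another inhibitor of mTORC1, named after its values were seen, had a log2 ratio of 1.003 ± 0.25 SE (adjusted p = 0.0972), with no overlap between groups. Of the list, 7 log2 ratios were above 0 and 1 was below, that of TRIB1 (-0.30 ± 0.20 SE, adjusted p = 0.538). TRIB1 was also named after its values were seen, and all its OE values lay below all its VEC values.

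None of the 19 tested substrates of AKT and mTOR passed. Their median log2 fold change was 0.25, beside 0.049 over all tested genes. With an unadjusted p under 0.05, 5 of the 19 were higher and 1 was lower, where 14.1% of all tested genes had such a p. LPIN1, a phosphatidate phosphatase that mTORC1 holds out of the nucleus, had 49.2, 24.5 and 34.5 CPM in OE libraries and 16.2, 12.96 and 14.6 CPM in VEC libraries. Its groups did not overlap, and it had a log2 ratio of 1.31 ± 0.29 SE (adjusted p = 0.0647). RPS6, the ribosomal substrate of S6 kinase, had a log2 ratio of 0.14 ± 0.19 SE. EIF4EBP1, the translation repressor that mTORC1 phosphorylates, was named after its values were seen. It had 231, 433 and 304 CPM in OE libraries and 129, 169 and 152 CPM in VEC libraries, a log2 ratio of 1.10 ± 0.26 SE (adjusted p = 0.0783).

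None of the 22 tested FOXO targets passed either. Their median log2 fold change was 0.32, beside 0.049 over all tested genes, with 18 values above 0 and 4 below. With an unadjusted p under 0.05 there were 4 higher and 2 lower targets of the 22, where 14.1% of all tested genes had such a p. In 8 of them all OE libraries lay above all VEC libraries and in 2 below, where such a separation was found in 20.1% of all tested genes. TXNIP, an inhibitor of glucose uptake, had 613, 532 and 591 CPM in OE libraries and 502, 449 and 403 CPM in VEC libraries, a log2 ratio of 0.36 ± 0.19 SE (adjusted p = 0.439). BNIP3, a mitophagy receptor, had 148, 125 and 139.6 CPM in OE libraries and 276, 251 and 255 CPM in VEC libraries. Every OE value was below every VEC value, and BNIP3 had a log2 ratio of -0.92 ± 0.19 SE with all libraries (adjusted p = 0.0514) and fell after GC correction (adjusted p = 0.00547).

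**Figure D5:**
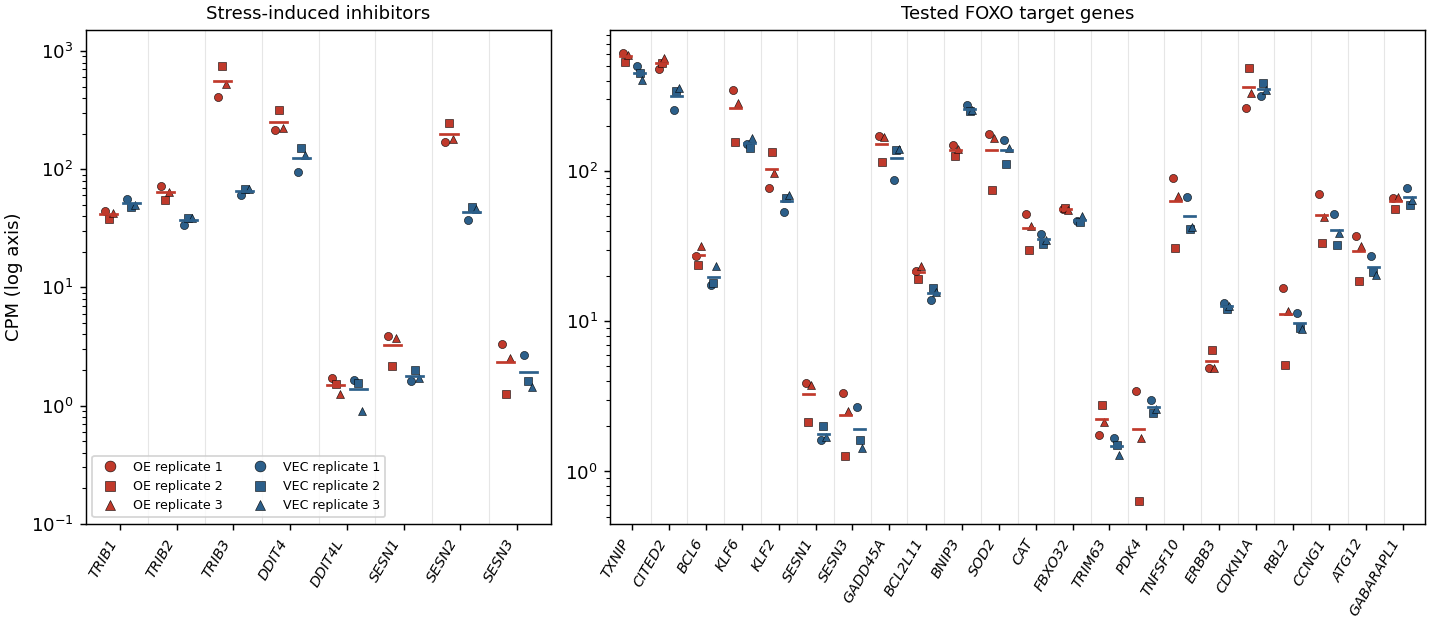
CPM on a log axis (y) of the stress-induced inhibitors of AKT and mTORC1 (left) and the tested FOXO targets (right), OE in red left of VEC in blue, with marker shapes for replicates and a bar for each group mean. OE values of TRIB3 and SESN2 lie above all VEC values, and those of BNIP3 and ERBB3 below.

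Ligands, binding proteins and other growth factor receptors gave no call among 14 tested genes. Their median log2 fold change was 0.062, beside 0.049 over all tested genes. Of the 14, 4 were higher and 2 lower with an unadjusted p under 0.05, where 14.1% of all tested genes had such a p. ERBB3, a receptor that recruits PI3K directly and is also among the FOXO targets, had 4.91, 6.45 and 4.86 CPM in OE libraries and 13.2, 12.02 and 12.7 CPM in VEC libraries. Every OE value was below every VEC value. ERBB3 had a log2 ratio of -1.23 ± 0.26 SE with all libraries (adjusted p = 0.0555) and fell after GC correction (adjusted p = 0.00134). IGFBP4, the most abundant of the list, had a log2 ratio of -0.42 ± 0.27 SE. The ligands INS and IGF1 had 0 counts.

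The 31 tested mTOR partners and amino acid sensors also gave no call, with a median log2 fold change of 0.0079. Of these genes 1 was higher and 1 lower with an unadjusted p under 0.05, where 14.1% of all tested genes had such a p. RRAGC, a GTPase that brings mTORC1 to the lysosome, had 30.1, 17.6 and 29.7 CPM in OE libraries and 15.3, 11.3 and 12.3 CPM in VEC libraries. Its groups did not overlap, and the log2 ratio was 0.99 ± 0.28 SE (adjusted p = 0.145). MAPKAP1, a subunit of mTORC2, had a log2 ratio of 0.14 ± 0.18 SE. Of 20 tested genes among other lipid enzymes and adaptors, 0 passed and 0 had an unadjusted p under 0.05, and the median log2 fold change was -0.045. HSP90AB1, a chaperone of AKT, had a log2 ratio of -0.29 ± 0.18 SE (adjusted p = 0.518), with all OE libraries below all VEC libraries.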

How the data were processed

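Counts and FPKM per gene in 6 libraries (3 OE, 3 VEC, grouped and numbered by their titles) were used as the authors deposited them; FPKM are scaled to gene length and library size. The submitters' processing notes name HISAT2 2.0.5 and hg19. Identifiers and positions in the table match GENCODE 29 (GRCh38) for each of 58735 genes, so GRCh38 coordinates are printed. The counting program is not given in the sources used here.

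The count table was tested as a whole by edgeR 4.0.16 (R 4.3.3): TMM, filterByExpr (minimum count 10, minimum total 15), robust quasi-likelihood test, Benjamini-Hochberg adjustment over 14520 genes, threshold 0.05. Genes not tested held at most 0.156% of a library's counts. Fold changes are OE over VEC, and SE is the fold change divided by the square root of F. With 3 libraries a group, exact permutation could reach no p under 0.1 and was left out. For the GC correction, a loess trend (span 0.3) of log2 CPM (prior count 2) on transcript GC content was taken per library as an offset. Alternatives used DESeq2 1.42.0, other filters and scalings, a replicate block, libraries left out, and limma 3.58.1 on FPKM after log2 with a pseudocount of 1 or 0.1. The edgeR step was checked on counts simulated without a GC trend or a deviating library, so that check does not bear on these features.

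Members, lists and alternatives were chosen with earlier results of these data known. Values are given library by library for members with an unadjusted p under 0.05, those called with all libraries, after GC correction or without both libraries numbered 2, and AKT1, AKT2, PIK3CA, MTOR and FOXO3. Of each list, called genes are named, otherwise those with the smallest p and the highest level. One gene that met this rule is not reported here. Additions made after values were seen are INSR, DDIT4, TRIB1, EIF4EBP1 and, among members, those called without OE replicate 2. Python 3.11.15, pandas 2.3.3 and matplotlib 3.10.9 served for tables and figures.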

Additional observations from a re-analysis of the deposited data

How the results depend on the processing

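Over all tested genes 181 were called, against 565 by the DESeq2 Wald test, 688 with no filter on low counts, 2589 with GC correction, 2754 without both libraries numbered 2 and 12 by limma on FPKM with no filter. In that order of alternatives, 2, 2, 8, 8 and 0 members were called (0 with all libraries, where 5 had an unadjusted p under 0.05), and 13, 12, 33, 32 and 1 genes of the other lists (2 with all libraries). Members whose groups did not overlap were 4, against 13 with GC correction and 25 without both libraries numbered 2, where 2 against 2 libraries separate more easily. Leaving out 1 library gave 25 to 3366 calls over all genes, 0 to 10 among the members, 2 to 38 in the other lists and 5 to 23 members with no overlap, the highest each time without OE replicate 2. With the replicate number as a block there were 1937 calls, 4 members and 24 list genes, and 3078, 9, 37 and 13 members without overlap when the block went with the GC correction. Deviations of same-numbered libraries correlated at 0.448, 0.585 and 0.0335. OE replicates 1 and 2 correlated best with the VEC library of the same number, and OE replicate 3 with VEC replicate 1 (0.225). Deviations within a group depend on each other, so these values do not decide whether the numbers mark pairs. The main fit took the numbers as no pairs, and the fits with the block are given beside it. AKT1 changed sign after GC correction (0.015, and 0.014 with the replicate block as well) and ran from -0.36 to 0.14 without 1 library, and AKT2 ran from -0.072 to 0.39 without 1 library. Of 35 members, 23 kept their sign in all fits that tested them. The members' median log2 fold change ran from 0.026 to 0.18 over all 18 alternatives, and moved by less than 0.217 in each. That value is the pooled SD between replicates of the members' median log2 CPM per library, a spread of levels and not of the fold change. TRIB3 was called in every alternative and SESN2 in all but limma on FPKM with no filter (adjusted p = 0.0590). The cause was not tested. Counts were few for INPP5D, DEPTOR and PIK3R2, which limits the precision of their values; why PIK3R2 had few was not tested.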
